A study of Homo sapiens with 4 samples.

Results

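The genes described here are 6 human genes of DNA mismatch repair, namely the MutL homologues *MLH3*, *PMS1* and *PMS2*, the MutS homologues *MSH3* and *MSH6*, and the exonuclease gene *EXO1*. They were chosen by their function from 20163 protein-coding genes of the GENCODE annotation on hg19, and the rule uses no measured value. For each gene the measurement is the H3K27ac signal at its promoter in 4 cancer cell lines. H3K27ac is an acetylation mark on histone H3 that is carried by active promoters and enhancers. It was profiled by chromatin immunoprecipitation and sequencing (ChIP-seq) in DU-145, from a prostate cancer, in COLO-205, from a colon cancer, and in OVCAR-3 and SKOV-3, both from ovarian cancers. The labels name no treatment and no engineered allele for any line, and each was grown to near confluence in its own serum-supplemented medium. There was 1 library per line, so no difference between lines has a replicate error, no test was possible, and a difference between lines cannot be told apart from a difference between libraries.

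Mismatch repair removes base mismatches and short insertion or deletion loops that escape the proofreading of the replicative polymerases. A MutS complex finds the error: MSH6 is the subunit for single mismatches and short loops, whereas MSH3 is the subunit for longer loops. A MutL complex follows, in which PMS2 supplies the strand-nicking activity, MLH3 acts mainly in meiotic crossing over with a minor part in repair, and PMS1 has no well-established role. EXO1 then digests the nicked strand past the error before it is resynthesised. Loss of the pathway gives a high rate of mutations and unstable microsatellites, as in a share of colon, endometrial and ovarian cancers. DU-145 is a line known for defects of mismatch repair, and its promoters were therefore set against those of the other lines.

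The peak lists ranged from 14001 peaks in SKOV-3 to 85576 in COLO-205, OVCAR-3 and DU-145 had 76093 and 75468, and the libraries had between 22400000 tags in SKOV-3 and 36000000 in DU-145. SKOV-3 stood apart with the shortest list and the fewest tags. Of 5 colon marker genes, 3 had a promoter peak in COLO-205 (*CDX2*, *VIL1*, *LGALS4*), and of 5 markers of Müllerian ovarian carcinoma, 5 had one in OVCAR-3 and 2 in SKOV-3 (*PAX8*, *SOX17*). In DU-145, the prostate markers *KLK3* and *HOXB13* had no promoter peak and *TMPRSS2* had one. The marker lists were not exclusive to their line, since 3 ovarian markers also had a promoter peak in COLO-205 (*PAX8*, *WT1*, *EMX2*).

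The promoters of the 6 genes differ in the short words they hold. In the 250 bp before the main transcript start (the start of the MANE Select transcript) both strands were searched for 7 words or word groups, and the stretches that hold most of the hits are printed here because the peaks described afterwards lie beside or over them. Sequences are read from GRCh37 along the strand of the gene, which is minus for *MLH3* and *PMS2* and plus for the others, with the searched words in capitals. For *PMS2* and *MSH6* the stretch is the longest part of the 250 bp outside every annotated exon, and for *MLH3*, *PMS1* and *EXO1*, where annotated exons cover the words, it is the 30 bases richest in them. The stretch of *MSH3* is not reported here.
MLH3 chr14:75518216-75518245: ccttggctggaacaactggtGCGCATGCGC
PMS1 chr2:190649116-190649145: gccagcggATTGGctgcgagcagcgCCAAT
PMS2 chr7:6048762-6048885: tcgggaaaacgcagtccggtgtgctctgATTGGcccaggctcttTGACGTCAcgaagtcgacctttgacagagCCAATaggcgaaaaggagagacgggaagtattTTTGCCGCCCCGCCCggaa
MSH6 chr2:48010034-48010220: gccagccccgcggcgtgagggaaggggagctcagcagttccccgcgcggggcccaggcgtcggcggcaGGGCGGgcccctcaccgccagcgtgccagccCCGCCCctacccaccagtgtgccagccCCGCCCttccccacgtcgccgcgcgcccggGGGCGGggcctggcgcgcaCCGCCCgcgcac
EXO1 chr1:242011444-242011473: atacgcgtTGACGTCAcatcctctGGGCGG

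The word GCATGCGC, which is part of the site of NRF1, occurs 3 times before the *MLH3* start, with 2 overlapping copies from 55 to 46 bases upstream and a copy from 10 to 3 bases upstream. It is found in 3.83% of the 18922 promoters with a main start, and in none of the other 5 genes. The CCAAT box (CCAAT) is found in 34.3% of promoters and occurs 2 times before *PMS1*, 3 times before *PMS2* and 1 time before *MSH6*. The GC box (GGGCGG, in 60.1% of promoters) occurs in 5 of the 6 promoters and not in that of *MLH3*, with 5 copies before *MSH6*, 4 before *MSH3*, of which 2 overlap, and 2 overlapping copies before *PMS2*. The cAMP response element (TGACGTCA, in 2.44% of promoters) occurs before *PMS2* and before *EXO1*. E2F words (TTTCCCGC, TTTGGCGC, TTTCGCGC or TTTGCCGC, in 3.76% of promoters) occur before *PMS2*, where the word overlaps a GC box, and as 2 overlapping copies before *MSH3*. The ETS word CCGGAAG (12.0% of promoters) and the TATA word TATAAA (9.11%) occur in none of the 6. These are matches of letters in a window and say nothing about binding.

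Over the 500 bp either side of the main start, the GC content ran from 52.9% at *MLH3* to 72.8% at *MSH6*, beside a median of 61.5% over all promoters. The number of CpG dinucleotides relative to that predicted from the base content was 0.756 at *MSH3* and between 0.826 and 0.906 at the other 5 genes, beside a median of 0.731. All 6 values therefore lay above the median of all promoters, whereas the GC content did so at *PMS1*, *PMS2*, *MSH3* and *MSH6*.

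A promoter peak was defined as a peak overlapping 1 kb either side of any annotated transcript start of a gene by at least 1 bp. In COLO-205, 4 of the 6 genes had one, beside 51.1% of all protein-coding genes (95% exact binomial interval 50.4 to 51.8). In DU-145 it was 6 of 6, beside 59.8% of all genes (59.1 to 60.5), and in OVCAR-3 also 6 of 6, beside 60.5% (59.8 to 61.1). In SKOV-3 it was 5 of 6, beside 31.6% (30.9 to 32.2). *MLH3*, *MSH3* and *MSH6* had a promoter peak in all 4 lines, a pattern shared by 25.2% of all genes. *PMS1* and *EXO1* lacked one in COLO-205 alone, a pattern of 3.81% of all genes. *PMS2* lacked one in SKOV-3 alone, a pattern of 13.0% of all genes. Thus the 3 absences fell in the longest and in the shortest peak list.

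With the peaks as listed, the median width of promoter acetylation at the mismatch repair genes was near that of all genes in COLO-205, DU-145 and OVCAR-3 and below it in SKOV-3. The width of a gene here is that of its widest promoter peak. Its median over the members with a peak was 446.5 bp in COLO-205 (range 379 to 546), beside 430 bp over all protein-coding genes with a promoter peak. In DU-145 it was 893.5 bp (343 to 1592), beside 818 bp. In OVCAR-3 it was 616 bp (507 to 705), beside 676 bp. The spread between members was thus widest in DU-145. In SKOV-3 the median was 260 bp (212 to 351), beside 380.5 bp, and none of the 5 members with a peak reached that library's median. The members above the median of their library numbered 3 in COLO-205, 3 in DU-145 and 2 in OVCAR-3. When peaks less than 350 bp apart were merged, the members above the median numbered 3 in DU-145, 5 in OVCAR-3, 2 in COLO-205 and 2 in SKOV-3, where *MSH3*, at 873 bp, and *MSH6*, at 811 bp, then exceeded a median of 419 bp.

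**Figure D1:**
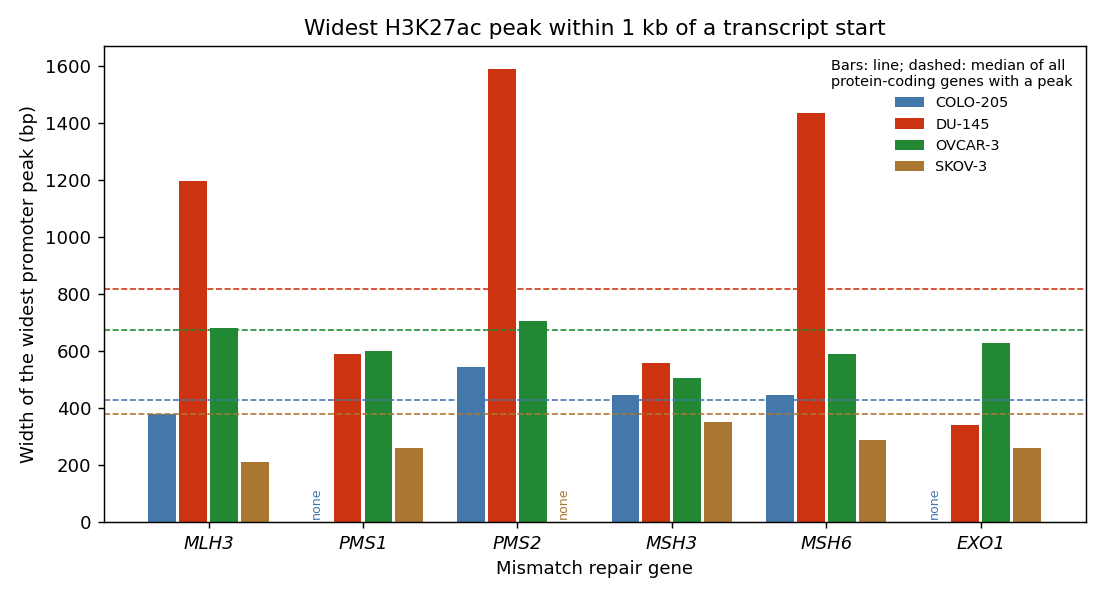
Width in bp of the widest H3K27ac peak within 1 kb of a transcript start (vertical axis, from 0) for the 6 mismatch repair genes, with a bar per cell line (1 library each) and a dashed line at the median of all protein-coding genes with a promoter peak in that library. *MLH3*, *PMS2* and *MSH6* rise to 1198, 1592 and 1436 bp in DU-145, while every SKOV-3 bar, with peaks as listed, is below the SKOV-3 median of 380.5 bp.

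Whether the main start itself lay inside a peak differed between the lines. It did for none of the 6 genes in COLO-205, beside 12.6% of all genes with a main start, and for none in SKOV-3, beside 7.04%. In DU-145 it was inside a peak for 5 of 6, beside 33.7%, and in OVCAR-3 for 4 of 6, beside 32.9%. The exception in DU-145 was *PMS1*, and those in OVCAR-3 were *PMS1* and *MSH6*.

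**Figure D2:**
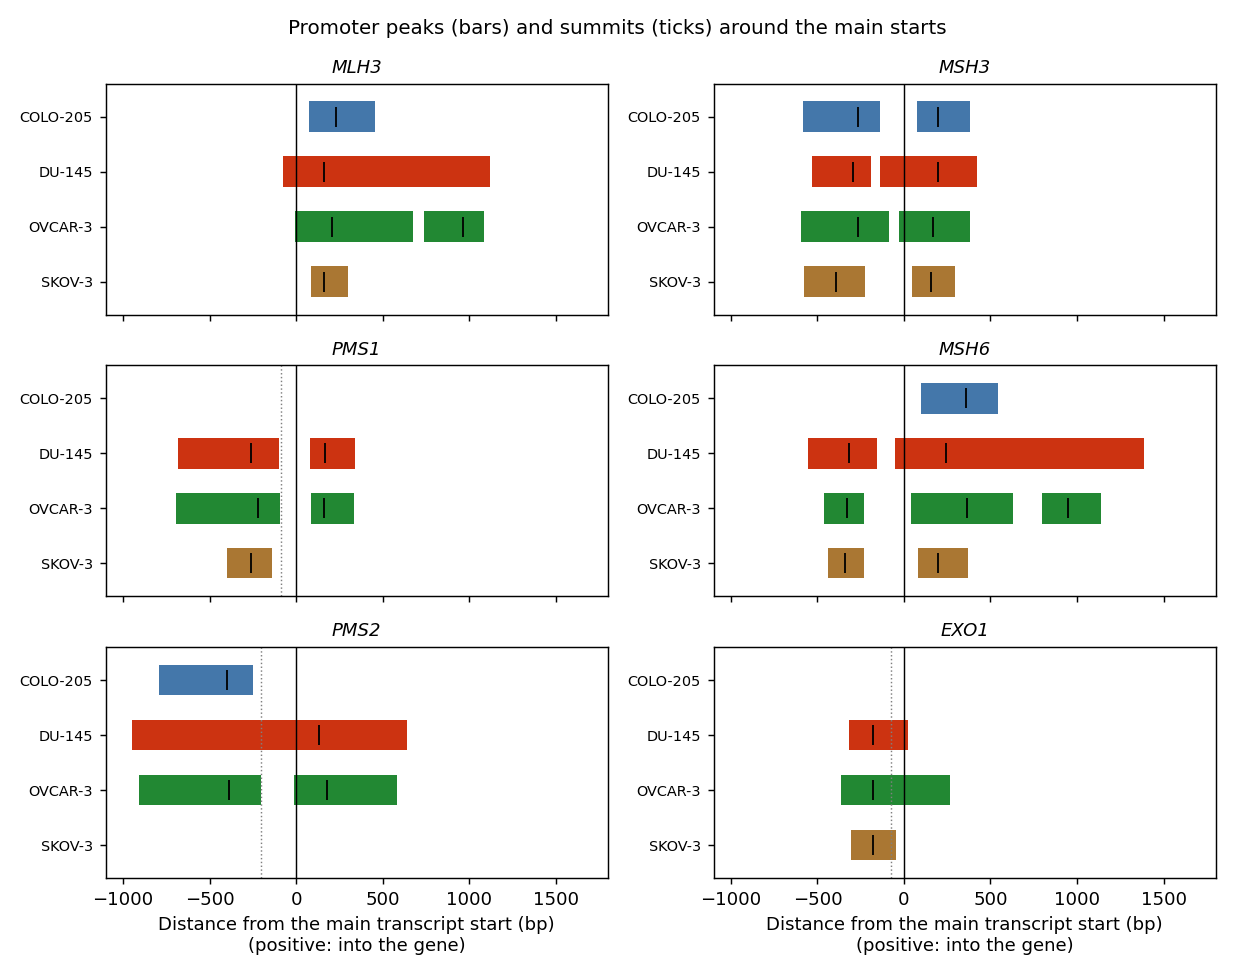
Promoter peaks within 1 kb of the main start (bars) and their summits (ticks) in each cell line, by distance in bp from the main transcript start (solid line at 0, positive into the gene), with the nearest start of a head-to-head gene of *PMS1*, *PMS2* and *EXO1* as a dotted line. *PMS1*, *MSH3* and *MSH6* have separate peaks on both sides of the start in several lines, *MLH3* has peaks on the gene side and *EXO1* has a single peak centred upstream, and the intronic *PMS2* peak of DU-145 and the innermost *MSH6* peak of OVCAR-3 are not drawn.

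*MLH3* (ENSG00000119684.16_11, chr14:75480472-75518235, minus strand, main start 75518170) had a promoter peak on the gene side of its start in every line. Each peak has 4 deposited values, and the pileup, which is the number of tags stacked at the summit, was recovered from them. The peak spanned chr14:75517717-75518095 in COLO-205, with a width of 379 bp and a pileup of 65 tags. In DU-145 it spanned chr14:75517050-75518247, with 1198 bp and 101 tags. In OVCAR-3 the wider of 2 peaks spanned chr14:75517497-75518177, with 681 bp and 120 tags, and the second, of 348 bp, had 18 tags. In SKOV-3 it spanned chr14:75517872-75518083, with 212 bp and 35 tags. The widths were highest in DU-145 and lowest in SKOV-3, while the pileup was highest in OVCAR-3. All the strongest summits fell between 158 and 230 bp into the gene, in the intron after the first exon of the main transcript. The fold enrichment over local background was 10.806 in OVCAR-3, 7.81 in COLO-205, 6.863 in DU-145 and 4.969 in SKOV-3. Among all genes with a promoter peak in the same library, 71.9% were narrower than *MLH3* in DU-145, 50.4% in OVCAR-3, 41.3% in COLO-205 and 8.45% in SKOV-3, so that its place in the library moved more than that of *MSH3*, which stayed between 28.3% and 52.4%.

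*PMS1* (ENSG00000064933.19_11, chr2:190648811-190742355, plus strand, main start 190649176) had peaks in 3 lines, and its strongest summit lay upstream of the main start in each of them. In COLO-205 the nearest peak was 32828 bp from the main start. In DU-145 the upstream peak, chr2:190648491-190649079, was 589 bp wide with 63 tags (95% exact Poisson interval 48.4 to 80.6), and a peak of 257 bp in the gene had 47 tags (34.5 to 62.5). In OVCAR-3 the upstream peak, chr2:190648484-190649085, was 602 bp wide with 104 tags (85.0 to 126), and the peak in the gene was 247 bp wide with 42 tags (30.3 to 56.8). The width of each peak thus differed little between these lines, whereas the upstream pileup exceeded the other beyond its counting interval in OVCAR-3 and not in DU-145. In SKOV-3 there was only the upstream peak, chr2:190648775-190649034, of 260 bp and 47 tags. The summits of the upstream peaks were at −221 bp from the main start in OVCAR-3, −262 in DU-145 and −259 in SKOV-3. These places lie in the first exon of *PMS1* transcripts that start upstream of the main one, and also inside *ORMDL1*, a regulator of sphingolipid synthesis whose nearest start is 86 bp upstream on the other strand. The share of genes narrower than *PMS1* was 43.0% in OVCAR-3, 31.1% in DU-145 and 22.9% in SKOV-3.

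*PMS2* (ENSG00000122512.17_12, chr7:6010556-6048761, minus strand, main start 6048680) had, with the peaks as listed, the widest promoter peak of the 6 genes in COLO-205, DU-145 and OVCAR-3 and none in SKOV-3. After merging below 350 bp it was the widest in none of the lines, with *MSH3* ahead in COLO-205 at 964 bp and *MSH6* in DU-145 and OVCAR-3 at 1941 and 2094 bp. In COLO-205 the peak, chr7:6048930-6049475, was 546 bp wide with 53 tags and lay wholly upstream. In DU-145 a single peak of 1592 bp with 89 tags, chr7:6048040-6049631, spanned the start. In OVCAR-3 the same interval held 2 peaks, of 594 bp with 91 tags (73.3 to 112) in the gene and of 705 bp with 116 tags (95.9 to 139) upstream. Their counting intervals overlapped. The share of genes narrower than *PMS2* was 65.2% in COLO-205, 84.7% in DU-145 and 52.4% in OVCAR-3. DU-145 also had an intronic peak, chr7:6044855-6045187, of 333 bp and 19 tags, close to an annotated internal start. In SKOV-3 the nearest peak was 274757 bp from the main start, and 10 peaks lay within 1 Mb, beside 111, 240 and 90 in COLO-205, DU-145 and OVCAR-3. *PMS2* has many pseudogene copies, but no stretch of at least 50 bp and 95% identity near its start was found in a gene named as a *PMS2* relative, and 14.7% of the window of 1 kb either side had such a copy elsewhere in the genome. Of the peaks themselves, such copies covered 25.6% in COLO-205, 27.8% of the wider one in OVCAR-3, and 12.3% of the wide and 31.8% of the intronic one in DU-145. They were not limited to *PMS2*, and covered 15.2% of the same window at *MLH3* and 8.8% at *MSH6*. At *MLH3* they covered 12.9% of the peak in DU-145 and 44.3% of the narrower peak in OVCAR-3. At *MSH6* they covered 55.5% of the innermost peak in OVCAR-3, and none was found in the other peaks of either gene. The part of reads from these copies was not tested.

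*MSH3* (ENSG00000113318.11_12, chr5:79950471-80172634, plus strand, main start 79950471) had 2 promoter peaks in every line, on either side of its start. The upstream peak was 445 bp wide in COLO-205, 343 bp wide in DU-145, 507 bp wide in OVCAR-3 and 351 bp wide in SKOV-3. The peak in the gene was 304, 560, 413 and 251 bp wide in the same order. In both, the widths thus stayed within a narrow range compared with those of *PMS2* or *MSH6*. The pileup in the gene was 49 tags (36.3 to 64.8) in COLO-205, 97 tags (78.7 to 118) in DU-145, 138 tags (116 to 163) in OVCAR-3 and 50 tags (37.1 to 65.9) in SKOV-3. The upstream pileup was 46 tags (33.7 to 61.4), 40 (28.6 to 54.5), 72 (56.3 to 90.7) and 26 (17.0 to 38.1) in that order. The gene side was therefore higher beyond the counting intervals in DU-145 and OVCAR-3, while the intervals overlapped in COLO-205 and SKOV-3. The wider peak was on the gene side in DU-145 only. The summits in the gene, 158 to 198 bp after the start, fell in exon 1. Part of the upstream peak had a near-identical copy elsewhere in the genome, namely 31.8% of it in OVCAR-3, 25.4% in COLO-205 and 18.4% in DU-145. For that of SKOV-3 none of at least 50 bp was found, and shorter copies were not counted. The part of reads from that copy was not tested.

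*MSH6* (ENSG00000116062.19_15, chr2:47922669-48037202, plus strand, main start 48010284) had peaks in all lines, mainly on the gene side. In COLO-205 it had a single peak, chr2:48010382-48010829, of 448 bp and 46 tags. In DU-145 a peak of 1436 bp with 95 tags, chr2:48010235-48011670, covered the start, and an upstream peak of 401 bp had 71 tags. In OVCAR-3 there were 4 peaks, of 234, 589, 345 and 283 bp from upstream into the gene, with 47, 82, 48 and 27 tags. The region that was 1 peak in DU-145 was thus broken into several in OVCAR-3. In SKOV-3 the peak in the gene, chr2:48010367-48010653, was 287 bp wide with 39 tags (27.7 to 53.3), and the upstream peak was 212 bp wide with 35 tags (24.4 to 48.7). The strongest summit fell between 195 and 366 bp after the start, and the share of narrower genes was 80.3% in DU-145, 52.9% in COLO-205, 30.5% in SKOV-3 and 41.8% in OVCAR-3. The annotation also starts some *MSH6* transcripts far upstream, from position 47922669, and none of the lines had a peak within 1 kb of those starts.

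*EXO1* (ENSG00000174371.17_13, chr1:242011269-242058450, plus strand, main start 242011506) had a single peak with its summit upstream of the main start in DU-145, OVCAR-3 and SKOV-3 and none in COLO-205, where the nearest peak was 7541 bp away. The peak was 343 bp wide with 88 tags in DU-145 (chr1:242011186-242011528). It was 630 bp wide with 161 tags in OVCAR-3 (chr1:242011145-242011774) and 260 bp wide with 76 tags in SKOV-3 (chr1:242011201-242011460). The summits were at −179, −177 and −179 bp from the start, and thus nearly at the same base in the 3 lines. A long noncoding RNA gene, ENSG00000288723, starts 76 bp upstream of the *EXO1* main start on the other strand, and the summits lie within its first exon. They also lie in the first exon of an *EXO1* transcript that starts further upstream. *EXO1* was the member with the highest pileup in OVCAR-3 and SKOV-3, and yet the narrowest in DU-145, where 9.19% of genes were narrower. The local background of its peak, which is the tag level expected at the summit, was 28.42, 22.37 and 14.64 tags in DU-145, OVCAR-3 and SKOV-3, above that of 99.7%, 99.7% and 99.8% of the widest promoter peaks. Its fold enrichment was 3.025, 6.932 and 4.922. The part of the high background in the narrow peak of DU-145, or in the absence of a peak in COLO-205, was not tested.

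*PMS1* and *PMS2* are arranged head to head with a protein-coding gene, and the peak lists did not separate the members from those neighbours. All the promoter peaks of *PMS1* were also promoter peaks of *ORMDL1* in every line. The same held for *PMS2* and *AIMP2*, a scaffold of the aminoacyl-tRNA synthetase complex, with the exception of the intronic peak in DU-145. As a result, the width was the same for member and neighbour in each line, for example 1592 bp for *PMS2* and *AIMP2* in DU-145. Which gene the acetylation belongs to cannot be told apart here.

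DU-145 was next set against each other line, gene by gene, with the ratio of widths of the genes that have a promoter peak in both. Peaks of DU-145 were wider in general, with a median ratio of 1.88 to COLO-205 over 8324 genes, 1.13 to OVCAR-3 over 10467 genes and 2.38 to SKOV-3 over 6031 genes. The median of the members was 3.04 to COLO-205 (4 genes, 3 above the median of all genes), 1.39 to OVCAR-3 (6 genes, 3 above) and 2.27 to SKOV-3 (5 genes, 2 above). Hence the mismatch repair genes as a group were not on one side of the general ratio.

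The members split into wide and narrow in this comparison. *MLH3* was 3.16, 1.76 and 5.65 times as wide in DU-145 as in COLO-205, OVCAR-3 and SKOV-3, ratios above those of 78.3%, 77.0% and 90.3% of genes. *MSH6* was 3.21, 2.44 and 5.00 times as wide, above 78.9%, 88.0% and 86.6%. *PMS2* was 2.92 and 2.26 times as wide as in COLO-205 and OVCAR-3, above 74.8% and 86.0%. With the peaks as listed, these 3 genes were above the general ratio in each line in which they had a peak, which did not hold after merging. *MSH3* was 1.26, 1.10 and 1.60 times as wide, above 24.6%, 47.7% and 25.8% of genes. *EXO1* was 0.544 times as wide as in OVCAR-3 and 1.32 times as wide as in SKOV-3, above 8.76% and 15.7%. *PMS1*, at 0.978 and 2.27 times, was above 33.6% and 47.0%. *MSH3*, *EXO1* and *PMS1* were below the general ratio in each such line with the peaks as listed. The ratios share the DU-145 library and are not independent of each other.

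The greater width in DU-145 rested in part on how the peaks were divided. When peaks less than 350 bp apart were merged, the widths in DU-145 and OVCAR-3 were 1198 and 1094 bp for *MLH3*, 1023 and 1027 bp for *PMS1*, 1592 and 1489 bp for *PMS2*, 954 and 977 bp for *MSH3*, and 1941 and 2094 bp for *MSH6*. After merging, DU-145 exceeded OVCAR-3 only at *MLH3* and *PMS2*, by 1.10 and 1.07 times, and none of the 6 genes was above the general ratio, which was 1.13. Against SKOV-3 the general ratio after merging was 2.79. That of *MSH6* was 2.39, as the SKOV-3 peaks joined into 811 bp, and was now below it. *MLH3*, at 5.65, and *PMS1*, at 3.93, were above it. Against COLO-205, where the general ratio was 2.16, *MLH3*, *PMS2* and *MSH6* stayed above it with 3.16, 2.92 and 4.33, and *MSH3* was at 0.990, with 954 bp in DU-145 and 964 bp in COLO-205. The share of the window of 1 kb either side of the main start that peaks covered, which leaves out the gaps between peaks, was 53.9% and 47.1% at *MLH3*, 42.3% and 42.4% at *PMS1*, 79.6% and 64.9% at *PMS2*, 45.1% and 46.0% at *MSH3*, 72.5% and 51.4% at *MSH6*, and 17.1% and 31.5% at *EXO1* in DU-145 and OVCAR-3. In COLO-205 the covered share was at most 37.4%, at *MSH3*, and in SKOV-3 at most 30.1%, at the same gene.

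The height of the signal gave another order of lines than its width. Pileups were expressed as tags per 1000000 ChIP tags of the library, with 95% exact Poisson intervals that cover counting error only. The highest summit of *MSH3* reached 4.04 tags per 1000000 in OVCAR-3 (3.39 to 4.77), beside 2.69 in DU-145 (2.19 to 3.29), 2.23 in SKOV-3 (1.66 to 2.94) and 1.64 in COLO-205 (1.22 to 2.17). The interval of OVCAR-3 was clear of the other 3. *EXO1* reached 4.71 in OVCAR-3 (4.01 to 5.49), 3.39 in SKOV-3 (2.67 to 4.25) and 2.44 in DU-145 (1.96 to 3.01). *PMS1* reached 3.04 in OVCAR-3 (2.48 to 3.68), 2.1 in SKOV-3 (1.54 to 2.79) and 1.75 in DU-145 (1.34 to 2.24). OVCAR-3 was thus above DU-145 beyond the counting intervals at *MSH3*, *EXO1* and *PMS1*.

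At the other 3 genes the intervals of OVCAR-3 and DU-145 overlapped. *MLH3* reached 3.51 in OVCAR-3 (2.91 to 4.20) and 2.81 in DU-145 (2.29 to 3.41), beside 2.18 in COLO-205 (1.68 to 2.78) and 1.56 in SKOV-3 (1.09 to 2.17). *PMS2* reached 3.39 in OVCAR-3 (2.80 to 4.07), 2.47 in DU-145 (1.99 to 3.04) and 1.78 in COLO-205 (1.33 to 2.33). *MSH6* reached 2.64 in DU-145 (2.14 to 3.23), 2.40 in OVCAR-3 (1.91 to 2.98), 1.74 in SKOV-3 (1.24 to 2.38) and 1.54 in COLO-205 (1.13 to 2.06), and was the only member with its highest value in DU-145. Higher values in OVCAR-3 were general, since the median over the distinct widest promoter peaks was 2.28 tags per 1000000 in OVCAR-3, 1.78 in DU-145, 1.70 in SKOV-3 and 1.34 in COLO-205.

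**Figure D3:**
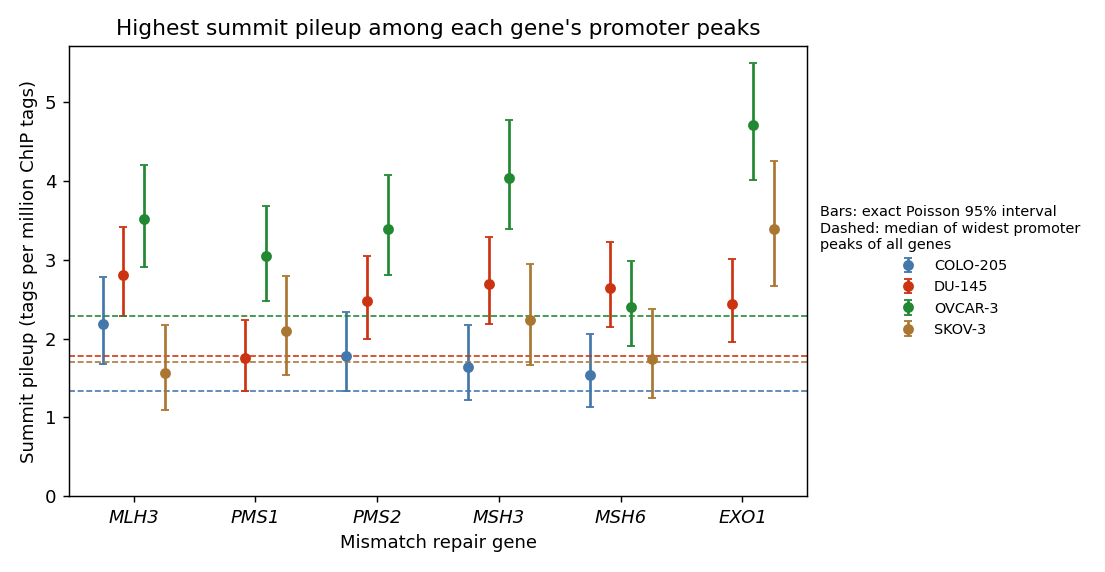
Highest summit pileup among the promoter peaks of each mismatch repair gene in tags per 1000000 ChIP tags (vertical axis), with a point per cell line (1 library each), bars for the 95% exact Poisson interval and dashed lines for the median over the distinct widest promoter peaks of all protein-coding genes. OVCAR-3 is highest at all genes but *MSH6*, and *EXO1* reaches 4.71 there.

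The absences were read against the level at which a peak could be called. At the median local background of the widest promoter peaks, the pileup needed was 31 tags in DU-145, 26 in OVCAR-3, 23 in COLO-205 and 21 in SKOV-3. The promoter summits of the members with a peak reached at least 46 tags in COLO-205 and 26 in SKOV-3. A higher local background needs more tags, and the level needed at *PMS1* and *EXO1* in COLO-205 and at *PMS2* in SKOV-3, where no peak was listed, was not computed.

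Outside the promoter windows, the members' gene bodies held 23 further peaks in DU-145, 12 in COLO-205, 1 in OVCAR-3 and none in SKOV-3. In COLO-205, 7 of the 12 lay in *MSH3*. In DU-145, 9 of the 23 lay in *MLH3*, 6 in *MSH6* and 4 in *PMS2*. At least 1 such peak lay in 6 of 6 members in DU-145, beside 34.7% of all protein-coding genes, and in 6 of 6 in COLO-205, beside 39.9%. In OVCAR-3 it was 1 of 6, *MLH3*, beside 30.4%, and in SKOV-3 none of 6, beside 8.66%. Long genes have more room for peaks, and the *MSH6* body counted here begins at position 47922669, far upstream of its main start. Per 100 kb of gene body, the members held 4.16 further peaks in DU-145 and all protein-coding genes 2.87. The same densities were 2.17 and 2.77 in COLO-205, and 0.181 and 2.47 in OVCAR-3. Within 1 Mb of the *MLH3* start, DU-145 had 378 peaks and OVCAR-3 366, beside 105 in COLO-205 and 23 in SKOV-3.

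The genes for the later steps of the pathway were counted together with an accessory gene as a later-step list of 15. It comprised the sliding clamp *PCNA*, its loader *RFC1* to *RFC5*, the single-strand binding proteins *RPA1* to *RPA3*, the ligase *LIG1* and the polymerase delta subunits *POLD1* to *POLD4*. The accessory gene was that of the chromatin protein *HMGB1*. A promoter peak was present at 15 of 15 in OVCAR-3, 6 in SKOV-3, 11 in COLO-205 and 12 in DU-145, to be read beside the shares of all genes given above. *RFC2*, *RPA3*, *POLD1* and *POLD2* lacked one in COLO-205, and *RFC3*, *LIG1* and *POLD1* in DU-145. In SKOV-3, *PCNA*, *RFC4*, *POLD1*, *POLD3*, *POLD4* and *HMGB1* had a peak. The median percentile of width within the library was 36.4 in DU-145, 39.3 in COLO-205, 14.8 in OVCAR-3 and 46.0 in SKOV-3 for this list, and 51.5, 52.6, 44.2 and 22.9 in the same order for the mismatch repair genes with a peak. The later-step genes were thus lower than the mismatch repair genes in 3 lines and higher in SKOV-3, with no test of the difference.

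The widest of the later-step peaks as listed was at *HMGB1* in COLO-205, with 1797 bp, and at *POLD4* in the other 3 lines, with 698 bp in SKOV-3, 2911 bp in DU-145 and 2131 bp in OVCAR-3. *POLD1*, the catalytic subunit, had narrow peaks, of 192 bp in SKOV-3 and 219 bp in OVCAR-3. Among the meiotic MutS homologues, *MSH4* had no promoter peak in any line. *MSH5*, its partner, was 992 bp wide in DU-145, 809 bp in COLO-205 and 615 bp in OVCAR-3, with no peak in SKOV-3.

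**Figure D4:**
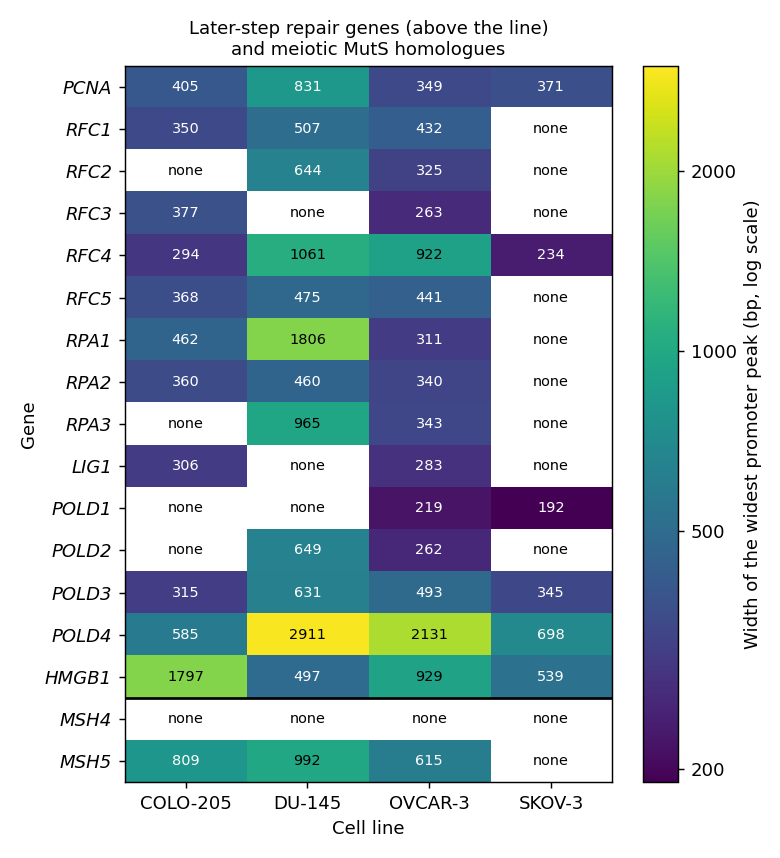
Width in bp of the widest promoter peak (colour on a log scale, value in the cell) of 15 later-step repair genes and, under the line, of the meiotic homologues *MSH4* and *MSH5*, by cell line with 1 library each. OVCAR-3 has a peak at all 15 later-step genes and SKOV-3 at 6, and *POLD4* is widest in 3 lines.

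Finally, the protein-coding gene with the most similar widths was sought for each member, among genes with a promoter peak in the same lines and no shared peak, by the smallest of the largest percentile differences over those lines. For *MLH3* it was *TYRO3*, within 6.47 percentile points in 4 lines, and for *MSH3* it was *NRDC*, within 4.10 in 4 lines. For *PMS2* it was *NSMF*, within 3.72 in 3 lines, and for *PMS1* it was *SMARCAL1*, within 2.86 in 3 lines. For *MSH6* it was ENSG00000167774, within 4.26 in 4 lines, and for *EXO1* it was *THAP9*, within 6.20 in 3 lines. The candidates numbered between 767 and 5071, so near matches are found for most patterns and the likeness is a description of widths alone.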

How the data were processed

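H3K27ac ChIP-seq was performed by the authors in the 4 cell lines, each as a single library. According to the labels and the methods of the study, the hg19 alignment was made with Bowtie2 2.1.0, and MACS2 2.1.0.20150603 was run in narrow-peak mode on each library at a q-value below 0.001. The deposited lists give for each peak a score, a fold enrichment over local background (a ratio), −log10 p and −log10 q values from the authors' peak caller, and the position of the summit. Peaks less than 350 bp apart are not merged in these lists, although the methods name that step. None of these values is scaled between libraries.

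Pileup and local background were solved from the fold enrichment and −log10 p within 0.001 for 100% of peaks, which was also the share recovered in simulated summits of each library. The depth in ChIP tags follows from the lowest background of a list, its smallest peak (taken as the fragment length) and 2700000000 genome positions. These depths set the Poisson intervals, which cover counting error only, as do the Clopper-Pearson intervals of shares. PCR duplicates are not known here.

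Starts were taken from GENCODE release 44 lifted to GRCh37, which is the build of the peaks. Promoter peaks overlapped 1 kb either side of a start by at least 1 bp. Percentiles and medians over all protein-coding genes with a promoter peak stand in for tests, which 1 library per line does not allow. Copies were sought with BLAST+ 2.17.0 at 95% identity over at least 50 bp. The named genes are the 6 members, nearest head-to-head neighbours, the gene most like each, and of the later-step list those without a peak in a line other than SKOV-3 and the widest per line. Other genes of that list are named as its members or in the SKOV-3 count. Some genes that this rule or the marker lists hold are not reported here. The members and lists were chosen with earlier results of these data known. Thresholds, windows, starts and merging were varied. Scripts ran on Python 3.11.15 with pysam 0.24.0, pandas 2.3.3, scipy 1.17.1, numpy 2.4.6 and matplotlib 3.10.9.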

Additional observations from a re-analysis of the deposited data

How the results depend on the processing

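The results were recomputed with a −log10 q of at least 5 or 10, merging below 350 bp, windows of 500 bp and 2 kb, the most upstream protein-coding start, summits in the window and the same number of peaks per library, and, chosen after seeing the data, with the MANE Select start alone. Counts of members with a promoter peak changed by at most 1.5 times under each. The median width moved by more in DU-145 to 589 bp with the most upstream start, where *MSH6* has no peak in any line, and in OVCAR-3 to 1060.5 bp with merging. The share of all genes moved to 31.7% in COLO-205 at a −log10 q of at least 10. With the same number of peaks it was 21.8% in COLO-205, 37.8% in DU-145 and 37.9% in OVCAR-3, *PMS1* and *EXO1* lost their peaks in DU-145, and *MSH6* lost its peak in COLO-205. Of the widths of single genes, 17 moved by over 1.5 times and 199 did not. Of the 17, 10 came from merging, among them *MSH3* in all 4 lines with 873 to 977 bp. No paired analysis was possible because each line has only 1 library. SKOV-3 had the fewest tags, 22400000, and the shortest list, and an absent peak is a level below the caller's threshold.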
